A study of Gallus gallus with 10 samples.

Results

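The genes described here had a high read count in the chicken cerebral cortex (NCC) and a low one in both kinds of optic tectum, the natural optic tectum (TeO) and the ectopic tectum (iTeO) that forms after implantation of human cells. They numbered 100 of the 24881 chicken genes counted. A gene was a member when its mean in NCC was at least 2 CPM (the reads on a gene per 1000000 reads on all chicken genes of a library), when this mean was at least 4 times both the iTeO mean and the TeO mean, when the iTeO mean was between 0.5 and 2 times the TeO mean, and when the lowest NCC library lay above the highest of the 7 tectum libraries. Levels in all 10 libraries thus chose the genes. Each difference between NCC and a tectum, and each ratio between the tecta, is therefore a description of the choice and was not tested as a result.

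Chicken embryos of genotype WT provided all tissues. The methods of the study name eggs of Hy-Line W36 hens for the embryos that were grafted, and give no source for the TeO and NCC embryos. For iTeO, neuroepithelial cells (NECs) made from human pluripotent cells by the 3d protocol were implanted into the anterior diencephalon at stage HH11 (an early embryo in which the brain vesicles have formed), and the ectopic tissue that arose there was sequenced. Of the 4 iTeO libraries, 2 came after implantation of NECs from hESCs (the line RH6), named iTeO (ES), and 2 after NECs from hiPSCs (RiPSC4), named iTeO (iPS). There were 3 TeO and 3 NCC libraries. Each kind of human cell came from a single line, and whole tissue was homogenised. The methods of the study give day 19 after implantation as the usual end point of grafted embryos, with exceptions where stated, and name no other day for the iTeO libraries. The age of the TeO and NCC tissue, the number of embryos behind a library and whether the TeO and NCC embryos carried grafts are not given in the sources used here. The p-values therefore measure the spread between these libraries, which may be technical.

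The cerebral cortex, or pallium, arises from the dorsal telencephalon at the front of the neural tube, while the optic tectum arises from the roof of the midbrain. The study names NCC cerebral cortex in its text and cerebrum in a figure legend, and does not describe its dissection. Whether NCC held only pallium is thus not known. The isthmic organizer at the border of midbrain and hindbrain patterns the tectum through secreted factors such as FGF8, and tissue that receives these signals at an ectopic place can take on a midbrain fate. Neurons of cortex and tectum share the machinery of axons and synapses, and the regions differ in the transcription factors, adhesion molecules, receptors and transmitter enzymes of their neurons. The deposited identifiers could not be paired with gene names (0 of 24881 matched), so neither the roles of the 100 genes nor the defining markers of cortex and tectum could be read, and members are given by identifier or by rank.

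The libraries held from 7832388 to 11631102 reads on genes, and 3 counts, used as a floor, corresponded to between 0.258 and 0.384 CPM. The most counted chicken gene, which is not a member, took between 13.3% and 22.0% of the chicken counts. Human genes took between 0.123% and 0.137% of the counts in all libraries except iTeO (ES) replicate 1 at 0.371% and iTeO (iPS) replicate 1 at 0.299%.

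Of the 24881 genes, 11929 had an NCC mean of at least 2 CPM, 198 of these were also at least 4-fold above TeO, and 130 were at least 4-fold above iTeO as well. The limits on the ratio between the tecta then removed 30 genes, 26 with an iTeO mean more than 2 times the TeO mean and 4 with less than 0.5 times. The condition that NCC and tectum libraries do not overlap removed no further gene. The members nearest to the limit had NCC means 4.08 and 4.12 times the higher tectum mean, and the nearest genes outside it 3.97 and 3.92 times. At the limit of level, members with 2.02 and 2.09 CPM in NCC faced genes left out at 1.86 and 1.83 CPM. At the upper limit of the ratio of iTeO to TeO, members at 1.90 and 1.86 faced genes left out at 2.04 and 2.05, and at the lower limit members at 0.595 and 0.599 faced genes left out at 0.484 and 0.483.

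The members differed widely in level. Their NCC means lay between 2.02 and 1439 CPM with a median of 25.3 CPM, with 31 members under 10 CPM, 46 from 10 to under 100 CPM and 23 at 100 CPM or more. In iTeO their means lay between 0.0558 and 244 CPM (median 3.34 CPM), and in TeO between 0.0594 and 252 CPM (median 2.80 CPM). A level in CPM is not per gene length, so it does not rank the members by number of transcripts. Because the tissues were sequenced in bulk, fewer cells that use a gene and less RNA per cell cannot be told apart.

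**Figure D1:**
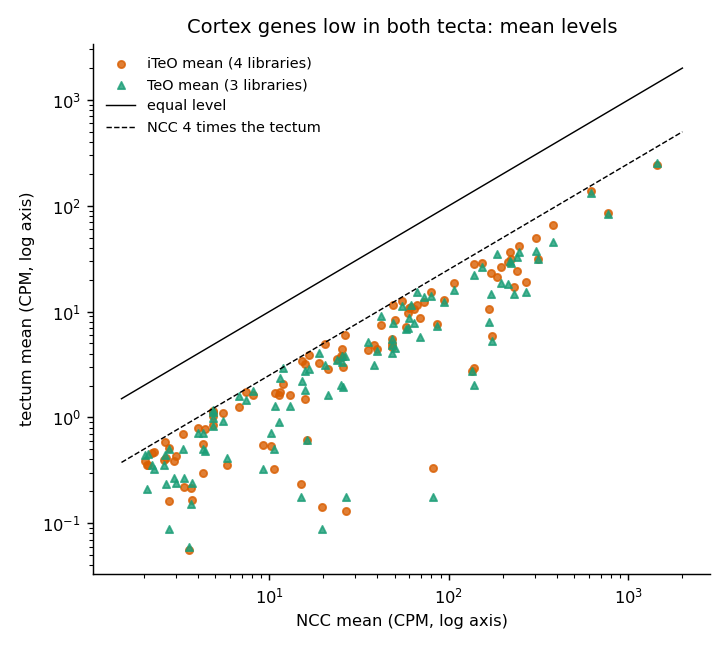
Mean level of each of the 100 genes in NCC (x axis, CPM, log scale) against its mean in iTeO (circles, 4 libraries) and in TeO (triangles, 3 libraries; y axis, CPM, log scale). The solid line marks equal levels and the dashed line an NCC level 4 times that of the tectum. All points lie under the dashed line, as the choice of genes requires, and NCC means run from 2.02 to 1439 CPM.

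Summed over the 100 genes, the level was 9021, 9125 and 8519 CPM in NCC replicates 1 to 3 (mean 8889 ± 324, SD, n = 3). It was 1356 and 1226 CPM in iTeO (ES) replicates 1 and 2 and 1228 and 1165 CPM in iTeO (iPS) replicates 1 and 2 (mean of the 4 libraries 1244 ± 80.4, SD, n = 4). In TeO it was 1153, 1107 and 1168 CPM (mean 1143 ± 32.1, SD, n = 3). The members thus took between 0.852% and 0.913% of the chicken counts of an NCC library and between 0.111% and 0.136% of those of a tectum library. On the CPM scale the NCC mean of the sum was 7.15 times the iTeO mean and 7.78 times the TeO mean. On this scale iTeO and TeO differed by 1.09 times and overlapped in range. The sums were not computed with TMM scaling, which equalises the bulk of the genes between libraries. Over the members, the median ratio of iTeO to TeO was 1.14 in CPM and 0.994 with TMM scaling, so the order of the tecta depended on the scaling. Expressed as the median over the members, the level was between 22.8 and 25.7 CPM in the NCC libraries, between 2.63 and 3.85 CPM in iTeO and between 2.66 and 2.98 CPM in TeO.

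The sum leaned on a few genes. The member with the highest NCC mean took 16.2% of it in NCC, and the 10 members with the highest NCC means took 54.1%. Without the highest member, the sum was between 7102 and 7779 CPM in NCC, between 956 and 1094 CPM in iTeO and between 865 and 914 CPM in TeO.

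**Figure D2:**
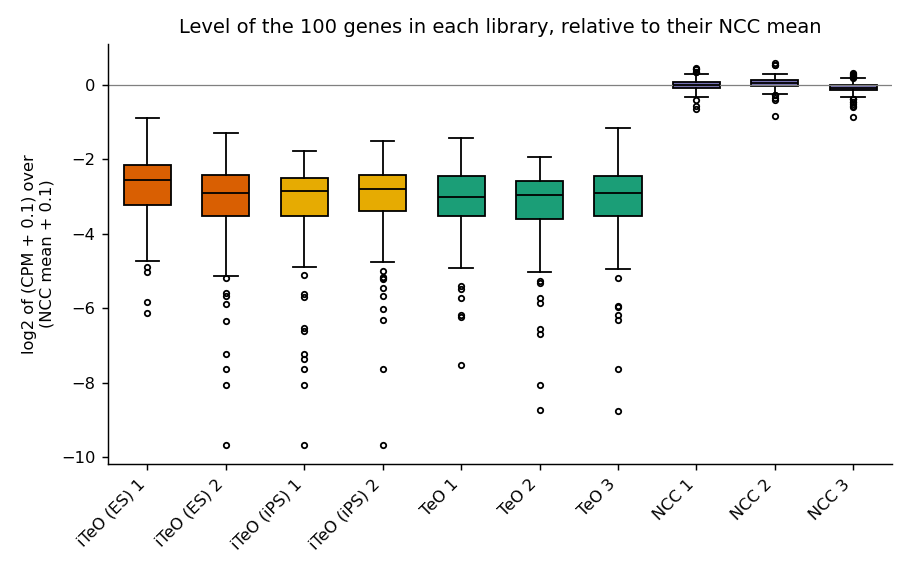
Level of the 100 genes in each of the 10 libraries relative to their own NCC mean, as log2 of (CPM + 0.1) over (NCC mean + 0.1). Boxes show the quartiles over genes with the median as a line, whiskers reach the farthest gene within 1.5 times the box height and points are genes beyond. The 3 NCC libraries lie around 0, and the boxes of all 7 tectum libraries lie below them, with that of iTeO (ES) replicate 1 the highest of the 7.

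The member with the highest NCC mean was ENSGALG00000043240, which ranked 32 among all chicken genes by NCC mean. It had 1554, 1346 and 1417 CPM in NCC (mean 1439, SD 106). In iTeO (ES) it had 263 and 259 CPM, in iTeO (iPS) 245 and 209 CPM, and in TeO 259, 242 and 254 CPM. The lowest NCC library was thus 5.13 times the highest tectum library, and on the CPM scale the ranges of iTeO and TeO overlapped. In the fit over all genes its log2 fold change was 2.53 (SE 0.09) between NCC and TeO and 2.78 (SE 0.08) between NCC and iTeO. Between iTeO and TeO the same fit, with TMM scaling, gave -0.25, lower in iTeO (adjusted p = 0.0302 by edgeR). Over the alternatives this adjusted p lay between 0.0128 and 0.112. The rule limited this ratio, so the value is a description.

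The members ranked from 2 to 5 by NCC mean showed the same order of tissues at different distances. The member ranked 2 had 730, 855 and 715 CPM in NCC, between 68.3 and 107 CPM in iTeO and between 78.0 and 88.6 CPM in TeO. The member ranked 3 had between 598 and 638 CPM in NCC, between 119 and 152 CPM in iTeO and between 128 and 135 CPM in TeO, and stood close to the limit with a ratio of 4.48 to the higher tectum mean. The member ranked 4 had between 349 and 397 CPM in NCC, and in this gene the 4 iTeO libraries (60.4 to 74.7 CPM) all lay above the 3 TeO libraries (39.5 to 50.8 CPM). The member ranked 5, ENSGALG00000016920, had between 291 and 343 CPM in NCC, between 26.4 and 36.9 CPM in iTeO and between 27.8 and 34.7 CPM in TeO.

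The distance between NCC and the higher tectum mean had a median of 6.34 times over the members. It was between 4 and 5 times in 27 members, from 5 to under 10 times in 51, from 10 to under 20 times in 12 and at least 20 times in 10. Against iTeO alone the median ratio was 6.66, and against TeO alone 8.24, both on the CPM scale. In the fit with TMM scaling the median log2 fold changes lay closer, 2.94 against iTeO and 3.05 against TeO. When single libraries in place of means were compared, the lowest NCC library was between 1.46 and 80.4 times the highest tectum library, with a median of 4.44 times.

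The largest ratio, 246 to the higher tectum mean, belonged to ENSGALG00000036364. It had 85.7, 81.8 and 77.4 CPM in NCC, from 995, 925 and 858 counts. In TeO it had 4, 1 and 1 counts. In iTeO it had 14 counts in iTeO (ES) replicate 1, which is 1.33 CPM, and 0 in the other 3 iTeO libraries. A single library thus held every iTeO count of this gene, and its ratio of iTeO to TeO, 1.90, rested on that library. The fitted log2 fold change was 8.77 (SE 0.63) against TeO and 7.92 (SE 0.52) against iTeO. Without iTeO (ES) replicate 1 the latter became 12.80, a value that depends on the prior count, since the 3 iTeO libraries left are at 0.

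**Figure D3:**
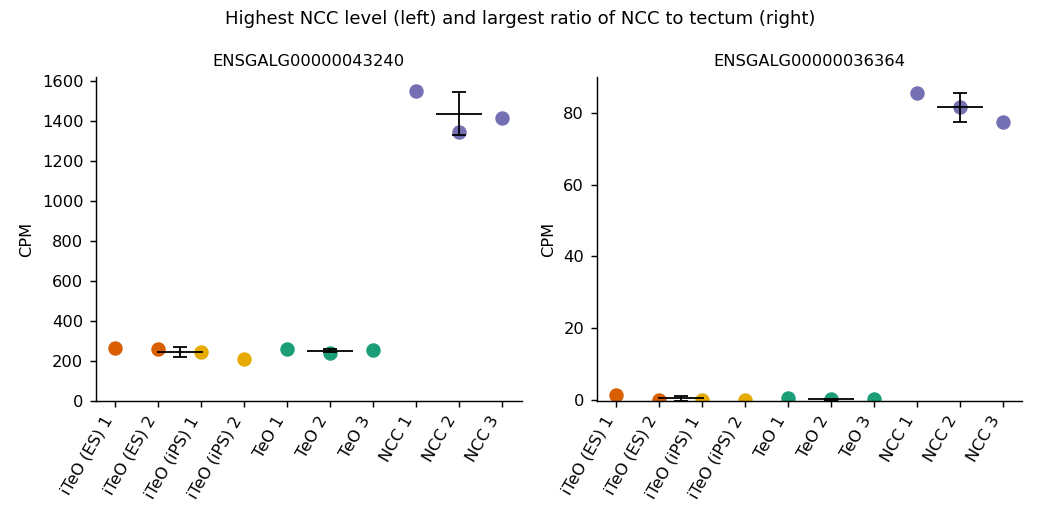
CPM in each library of the member with the highest NCC mean (ENSGALG00000043240, left) and of the member with the largest ratio of NCC to tectum (ENSGALG00000036364, right). Points are libraries, and horizontal marks with error bars are the mean ± SD of the 4 iTeO, 3 TeO and 3 NCC libraries. The left gene keeps between 209 and 263 CPM in every tectum library, while the right gene is at 0 in 3 iTeO libraries and between 77.4 and 85.7 CPM in NCC.

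Besides this gene, the 10 members with a ratio of at least 20 held genes of low and of high level. The member with the next largest ratio, 153, had 329, 329 and 254 counts in NCC and between 0 and 3 counts in every tectum library. The third had 232, 251 and 185 counts in NCC, 6 counts in iTeO (ES) replicate 1 and at most 2 in the other tectum libraries. ENSGALG00000016564, with a ratio of 49.0, had 1603, 1605 and 1395 counts in NCC and between 10 and 54 counts in the tectum libraries. A further member, with a ratio of 29.5, had between 1820 and 2144 counts in NCC and between 33 and 74 counts in the tectum.

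Most members were nevertheless detected in the tectum. In 68 of the 100, every tectum library held more than 3 counts, a share that was not computed over all genes. In 14, at least 1 tectum library was at 0. No member was at 0 in all 4 iTeO libraries or in all 3 TeO libraries. The limits on the ratio of iTeO to TeO exclude such genes in advance. For 3 members all 7 tectum libraries held 3 counts or fewer, so a level in the tectum was at the floor for these. Among the iTeO libraries the number of members at 0 was 0 and 7 in iTeO (ES) replicates 1 and 2 and 8 and 6 in iTeO (iPS) replicates 1 and 2, and in TeO it was 0, 2 and 2. The lowest count of any member in an NCC library was 17.

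All 100 members passed the filter on low counts, which a gene with a high level in NCC passes through NCC alone. In the fit with edgeR (quasi-likelihood test, a call being a Benjamini-Hochberg adjusted p under 0.05 with a log2 fold change beyond 1 in size), 100 of 100 were called higher in NCC than in TeO, beside 5.93% of all 13999 genes tested. Between NCC and iTeO, 100 of 100 were called higher in NCC, beside 7.05%. The median log2 fold change of the members was 3.05 against TeO and 2.94 against iTeO, where the median over all genes tested was -0.01 in both. Both contrasts were used to choose the genes and share the NCC libraries, so these counts only restate the choice.

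To describe how far the choice leaned on single libraries, the same conditions were applied to 9 libraries at a time and the genes so chosen were read in the library left out. Between 94 and 106 genes were chosen in this way, of which between 88 and 99 were among the 100. The left-out library lay on its own side of all the libraries of the other kind in every chosen gene for 7 of the 10 libraries. The exceptions were iTeO (ES) replicate 1 with 103 of 105, iTeO (ES) replicate 2 with 100 of 102 and NCC replicate 3 with 105 of 106. The lowest ratio of NCC to a left-out tectum library was 0.229, in iTeO (ES) replicate 2. The left-out library was compared with the 9 libraries that had chosen the genes, and libraries of a tissue may be technical replicates. The order was therefore largely set by the choice, and these shares are no independent test. They were not computed over all genes.

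The 4-fold distance was part of the choice and asks for more than the order. Its shares in the left-out library are therefore also no independent test. This distance held as often as the order in TeO replicate 2 and less often in the other libraries. It was met by 74.3% of the chosen genes in iTeO (ES) replicate 1 and by 85.3% in iTeO (ES) replicate 2, by 90.2% and 90.6% in iTeO (iPS) replicates 1 and 2, by 96.0%, 100% and 90.1% in TeO replicates 1 to 3 and by 89.1%, 94.8% and 82.1% in NCC replicates 1 to 3. The median ratio in the left-out library was between 5.98, in iTeO (ES) replicate 1, and 8.67, in TeO replicate 1.

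**Figure D4:**
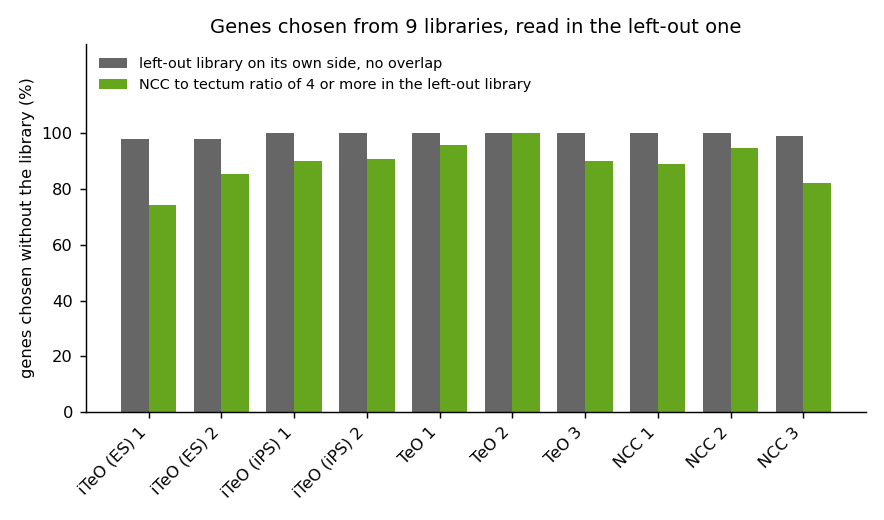
Genes chosen by the same conditions from 9 libraries and read in the library left out, for each of the 10 libraries. Dark bars give the percent of these genes in which the left-out library did not overlap the libraries of the other kind (NCC against tectum), and green bars the percent in which the NCC level was at least 4 times that of the tectum. Dark bars lie between 98.0% and 100%, and green bars between 74.3% in iTeO (ES) replicate 1 and 100% in TeO replicate 2. The 9 libraries compared with the left-out one had chosen the genes, so the bars are no independent test.

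Between the tecta, the rule kept the ratio of iTeO to TeO within a 4-fold window. It lay between 0.595 and 1.90 with a median of 1.14. It was at least 1.5 in 20 members and at most 0.67 in 3. On the CPM scale the iTeO mean was above the TeO mean in 72 of the 100, beside 68.9% of the 11929 genes with an NCC mean of at least 2 CPM, whose median ratio was 1.15. With TMM scaling, which equalises the bulk of the genes between libraries, it was above in 48 of the 100, beside 50.3% of these genes, so the direction depended on the scaling. No member was called between iTeO and TeO by edgeR, beside 6.79% of the genes tested, and DESeq2 called 0 as well. At an unadjusted p under 0.05 there were 17 members, beside 45.6%, and 10 had an adjusted p under 0.05 at any fold change (3 with the higher level in iTeO and 7 in TeO), beside 36.5% of the genes tested (18.0% and 18.4% in these directions). The limits on the ratio held down the number of calls in advance. They limit the counts by p alone only in part. The members also had a wider error in this contrast, with a median SE of 0.26, beside 0.14 over all genes tested. Nothing is read from these counts. With all libraries 0 members were called higher in TeO, beside 2.75% of the genes tested. Without iTeO (ES) replicate 1, 4 members were called, all with a higher level in TeO, beside 6.98% of the genes called in either direction in that fit, and 1 of the 4, ENSGALG00000036364, rested on 0 counts in the remaining iTeO libraries and 4, 1 and 1 counts in TeO. Without iTeO (iPS) replicate 1, 1 member was called, also higher in TeO, beside 6.67%.

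The spread among the libraries of a tissue was described by the coefficient of variation, without a test. Among the 57 members with an iTeO mean of at least 2 CPM, its median in iTeO was 20.3%, beside 12.6% over all genes with such a mean. The median was 10.4% in TeO (56 members with a TeO mean of at least 2 CPM), beside 8.19%, and 10.1% in NCC (all 100), beside 8.46%. The members were chosen to be low in the tectum, and the genes beside them had no upper limit of level. Levels were thus not matched, and no difference in spread is read from these medians. NCC replicate 3 was the lowest NCC library in 52 of the 100 members, beside 35.9% of the genes with an NCC mean of at least 2 CPM, and its ratio to the mean of the other 2 NCC libraries had a median of 0.928 over the members and 0.987 over those genes.

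Among the tectum libraries, iTeO (ES) replicate 1 stood apart in these genes. It was the highest of the 7 in 46 of the 100 members, beside 21.5% of the genes with an NCC mean of at least 2 CPM. iTeO (ES) replicate 2 was the highest in 16 members, beside 21.5%, iTeO (iPS) replicate 1 in 11, beside 10.9%, and iTeO (iPS) replicate 2 in 9, beside 19.9%. The TeO replicates were the highest in 5, 1 and 12 members, beside 5.67%, 7.59% and 12.8%. The ratio of iTeO (ES) replicate 1 to the mean of the other 3 iTeO libraries had a median of 1.20 over the members and of 1.003 over those genes. It was above 1 in 64 members, beside 50.6% of those genes. Without this library, the iTeO mean was above the TeO mean in 61 members, beside 67.7% of those genes, with a median ratio of 1.05.

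**Figure D5:**
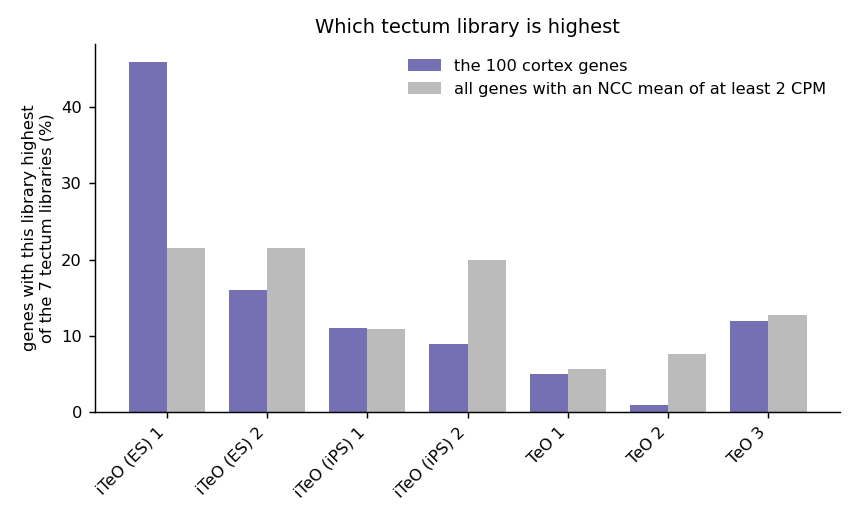
Percent of genes in which each of the 7 tectum libraries had the highest CPM of the 7, for the 100 genes (purple) and for all 11929 genes with an NCC mean of at least 2 CPM (grey). iTeO (ES) replicate 1 was highest in 46 of the 100 genes, beside 21.5% of all.

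The excess of iTeO (ES) replicate 1 appeared at every distance between NCC and tectum. Summed over the 100 genes it lay above the mean of the other 3 iTeO libraries by 1.69% of the NCC level, and the same measure for the other tectum libraries, each against the rest of its own tissue, was between -1.18% and 0.44%. Over the 27 members with a ratio under 5 the excess was 3.998% of the NCC level, beside -3.23% to 1.61% in the other tectum libraries. Over the 51 with a ratio from 5 to under 10 it was 1.10%, beside -0.930% to 0.325%. Over the 12 with a ratio from 10 to under 20 it was 2.87%, beside -1.42% to 0.315%. Over the 10 with a ratio of at least 20 it was 1.75%, beside -0.775% to 0.420%. The ratios that set these classes rest on tectum means that include this library. In these last 10 genes the summed level was 21.6 CPM in iTeO (ES) replicate 1 and 12.2 CPM in iTeO (ES) replicate 2. It was 10.1 and 9.79 CPM in iTeO (iPS) replicates 1 and 2, and 13.5, 10.2 and 11.7 CPM in TeO. The NCC libraries had 643, 637 and 586 CPM. iTeO (ES) replicate 1 was the highest tectum library in 7 of these 10 genes. In the other classes it was the highest in 13 of the 27, 20 of the 51 and 6 of the 12. The share over the genes with an NCC mean of at least 2 CPM was 21.5%.

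This library also had the highest share of human counts, 0.371%. iTeO (iPS) replicate 1, with the next highest share, 0.299%, was the highest tectum library in 11 members, and its ratio to the mean of the other 3 iTeO libraries had a median of 0.874 over the members. The part of the human share in the level of these genes was not tested.

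The rule took all 4 iTeO libraries as a single group, so a contrast of the ES with the iPS libraries among them was not used by it. It asks whether the genes differ with the kind of human cell that was implanted. None of the 100 members was called by edgeR, beside 0.0143% (2 of 13999) of the genes tested, and the smallest adjusted p of a member was 0.281. Of the 100, 31 passed the filter on low counts only with NCC in the fit, and their few iTeO counts bear little on this comparison. At an unadjusted p under 0.05 there were 15 members, 12 higher in iTeO (ES) and 3 higher in iTeO (iPS), beside 9.18% of the genes tested (4.91% and 4.27% in these directions). DESeq2 called 0 of the 90 members for which it gave an adjusted p, beside 0.274% of 13133 genes without shrinkage and 0.0838% with ashr. At an unadjusted p under 0.05 it had 15 of the 100, beside 5.31% of its genes. With the 4 iTeO libraries alone in the edgeR fit, 69 members were tested, of which 0 were called, beside 59 of 13491 genes (0.437%), and 5 had an unadjusted p under 0.05, beside 6.83%. In that fit 48 of the 69 were higher in iTeO (ES), beside 51.8% of the genes. The median log2 fold change of the members was 0.15, with 66 higher in iTeO (ES), beside a median of 0.01 and 51.8% higher over all genes tested.

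That direction followed a single library. Without iTeO (ES) replicate 1, 45 members were higher in iTeO (ES), with a median log2 fold change of -0.05, and 2 members were called, 1 in each direction, beside 64 of 13911 genes (0.460%). Without iTeO (ES) replicate 2, 67 were higher in iTeO (ES), with a median of 0.26, and 3 were called, all higher in iTeO (ES), beside 96 of 13918 genes (0.690%). In both of these fits the lone iTeO (ES) library is assumed to vary like the libraries of the other groups.

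The members with the smallest p-values in each direction show the size of the differences. ENSGALG00000009740 had levels of 9.97 and 10.1 CPM after implantation of ES-derived cells and of 5.51 and 7.43 CPM after iPS-derived cells, a log2 fold change of 0.62 (SE 0.17, adjusted p = 0.333 by edgeR). ENSGALG00000016564 reached 5.13 and 2.56 CPM in the iTeO (ES) libraries and 1.28 and 2.01 CPM in the iTeO (iPS) libraries, a log2 fold change of 1.21 (SE 0.37, adjusted p = 0.374 by edgeR). Without iTeO (ES) replicate 2 the latter became 1.61 (adjusted p = 0.0127 by edgeR, within a range of 0.0127 to 0.758 over the alternatives), without iTeO (ES) replicate 1 it became 0.61 (adjusted p = 0.658 by edgeR), and with the shrinkage of ashr it was 0.42. In both genes the iTeO (ES) libraries lay above the iTeO (iPS) libraries, and neither passed the threshold with all libraries.

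In the opposite direction, ENSGALG00000016920 reached 26.4 and 27.2 CPM in the iTeO (ES) libraries and 36.9 and 36.1 CPM in the iTeO (iPS) libraries, a log2 fold change of -0.46 (SE 0.11, adjusted p = 0.281 by edgeR). ENSGALG00000034524 reached 6.08 and 5.52 CPM in the iTeO (ES) libraries and 7.56 and 9.44 CPM in the iTeO (iPS) libraries, a log2 fold change of -0.56 (SE 0.19, adjusted p = 0.426 by edgeR). In both genes the iTeO (iPS) libraries lay above the iTeO (ES) libraries without overlap, but neither difference passed adjustment over all genes tested or reached a log2 fold change of 1 in size. Such separation was common. Both iTeO (ES) libraries lay above both iTeO (iPS) libraries in 16 members and below both in 12. Beside these stood 17.8% and 14.3% of the 11929 genes with an NCC mean of at least 2 CPM.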

How the data were processed

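Total RNA of 10 tissue samples was sequenced on a NextSeq500 as single-end reads from stranded libraries. The authors trimmed the reads with Trimmomatic (windows of 5 bp under Q20, at least 30 bp kept), aligned them with STAR 2.7.1a to a joined human (GRCh38) and chicken (galGal5) genome and assigned reads with a unique position to genes by featureCounts of Subread. Reads equally similar to both genomes were lost, which lowers conserved genes, and the strand setting of the counting is not given in the sources used here, so overlapping genes cannot be told apart. The deposited values are raw counts.

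CPM was computed from the chicken counts of each library. The tests used edgeR 4.0.16 under R 4.3.3 (TMM scaling, filterByExpr by tissue, robust quasi-likelihood fit), with all 10 libraries in a single fit and the tissues as 3 groups, the kinds of iTeO being split into 4 groups where they were compared. P-values were adjusted by Benjamini-Hochberg over all 13999 genes tested, and the standard error was taken from the log2 fold change and F. Alternatives were DESeq2 1.42.0 with and without ashr 2.2.63, its size factors, no filter, the compared groups alone, the replicate number as a block, other limits of the rule and each library left out. In simulated data for these 13999 genes with 200 of them shifted by a log2 of 2 between the kinds of iTeO, edgeR found 89.0% and made 183 calls, 5 of them false. Simulated levels were means over all 10 libraries, NCC included, and the 200 genes were drawn from all genes tested. The members are low in iTeO, with a median SE of 0.34 between the kinds of iTeO, beside 0.18 over all genes tested. The 89.0% therefore does not apply to the members. Members, lists and named genes were chosen with earlier results of these data known. The named genes are the member with the highest NCC mean, the one with the largest ratio and the 2 with the smallest p in each direction between iTeO (ES) and iTeO (iPS). Lists of cortical and tectal markers were not used here, since no identifier could be paired with a symbol.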

Additional observations from a re-analysis of the deposited data

Results flagged for a closer look

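The level of ENSGALG00000036364 in iTeO was set apart by a single library, iTeO (ES) replicate 1, at 1.33 CPM against 0 in the other 3 iTeO libraries. Among the 100 members, 8 had an iTeO library set apart by the same measure, Dixon's gap ratio over 4 libraries. In 5 of them it was iTeO (ES) replicate 1 on the high side, beside 1.501% of the genes with an NCC mean of at least 2 CPM. It was iTeO (ES) replicate 2 on the high side in 2, beside 1.12%, and iTeO (iPS) replicate 2 in 1, beside 0.855%. iTeO (iPS) replicate 1 on the high side and each library on the low side had 0 members, beside between 0.277% and 0.771%. The share of those genes with any library set apart was not computed. Chance flags about 1 in 20 groups, and genes of very low count are flagged readily.

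Counts on human genes, which the comparisons did not use, took 0.371% of iTeO (ES) replicate 1 and 0.299% of iTeO (iPS) replicate 1, above the highest share in TeO and NCC, 0.137%.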

How the results depend on the processing

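The number of genes chosen followed the fold of the rule, with 173 genes at a fold of 3 and 31 at a fold of 8 in place of 100. It was 122 with TMM scaling, 114 without the most counted gene in the library total, 115 and 75 with a minimum of 1 and 5 CPM, 130 without the limits on the ratio of the tecta, and between 94 and 106 with a library left out. Members called higher in NCC stayed at 100 against iTeO, beside 11.9% to 17.1% of all genes called in either direction. Against TeO they numbered 99 to 100 with a library left out (99 without TeO replicate 1 or 2), beside 11.8% to 13.1%. Between iTeO (ES) and iTeO (iPS) 0 members were called under the 6 other alternatives, beside 0.00714% to 0.437% of the genes tested. Between iTeO and TeO 0 were called under these, beside 3.22% to 6.79%. With a library left out this count ranged from 0 to 4, beside 6.11% to 6.98%. The log2 fold change of ENSGALG00000036364 between iTeO and TeO, 0.85 with all libraries, ranged from -4.03 to 1.75 with a library left out, and reversed to -4.03 without iTeO (ES) replicate 1, where the 3 remaining iTeO libraries are at 0 and the value depends on the prior count. ENSGALG00000016564 passed the threshold between iTeO (ES) and iTeO (iPS) at 1.61 without iTeO (ES) replicate 2. The other 157 values of named genes kept their direction and their side of the threshold.

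Same-numbered TeO and NCC libraries had correlations of their deviations of 0.33, -0.24 and 0.34, beside -0.51 to 0.33 for differently numbered ones. These few values do not settle whether the numbers pair the libraries. With the replicate block, 0 members were called between iTeO (ES) and iTeO (iPS), beside 0.00714% of the genes tested. Between iTeO and TeO 0 were called, beside 6.21%. In each comparison with NCC 100 were called, beside 12.6% against TeO and 16.7% against iTeO. These shares count genes called in either direction. Depth limits the tectum level of the 32 members with 3 counts or fewer in at least 1 tectum library (11 to 25 members in each of these libraries), and groups of 2 limit the comparison of the kinds of iTeO.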

Other observations

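In the order of the deposited table, 17 of the 100 members stood next to another member, forming 9 adjacent pairs. The sources used here do not say how the rows are ordered. The number of adjacent pairs in other sets of genes was not computed, so nothing is read from this count. The member next to ENSGALG00000036364 had the third largest ratio of NCC to tectum, between 16.7 and 22.2 CPM in NCC, and, like its neighbour, most of its tectum counts in iTeO (ES) replicate 1, with 6 counts there and at most 2 in any other tectum library. No gene name, strand or position was read for these rows.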
